A study of Notamacropus eugenii with 7 samples.

Results

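MiR-184 and miR-204 are 2 of the 346 miRNAs named in the deposited table of known miRNAs in tammar wallaby milk and blood serum, and 2 of the 102 that were listed in at least 1 library. They were chosen because their shares were highest in the milk of day 75, low by day 250 and nearly nil in serum, so these levels are given as a description and without a test. The tammar wallaby (the labels name the species Notamacropus eugenii) is a marsupial whose young is born very immature and grows through a long lactation. Skim milk was collected at days 35 and 75 (labelled phase 2A, early lactation), days 120 and 175 (phase 2B, mid lactation) and day 250 (phase 3, late lactation). Serum came from the tail vein of lactating mothers that also gave milk, at days 120 and 175. All animals were lactating females kept at a pair of Australian sites, none was described as treated beyond the anaesthesia and oxytocin used to collect milk, and their ages were not given in the sources used here. Milk of several females was pooled for each day before RNA isolation, so a library stands for a pool and not for an animal. The days are those of the sample labels, and the methods of the study give a slightly earlier day for the samples labelled day 120. A duplicate of day 175 mentioned in the series record was not analysed here.

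A miRNA is a short RNA that binds matching sites in mRNAs, mainly through a few bases near its 5′ end called the seed, and lowers their translation and stability. Milk contains miRNAs in small vesicles shed by cells, which remain when cells and fat are spun out of the milk. MiR-184 is known from the epithelium of the cornea, from the lens and from neural stem cells, and a change in its seed causes an inherited disease of the cornea and lens in humans. MiR-204 lies in an intron of the ion channel gene TRPM3, is abundant in the pigment epithelium of the retina and in the lens, and is known to repress the homeobox gene Meis2 during eye development. Both are therefore best known from the eye, not from the mammary gland.

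Every level below is a share in percent, the reads of a miRNA over all annotated miRNA reads of its library, which the authors rounded to 3 decimals. A value is thus known to 0.0005 percentage points either way, an entry of 0 stands for a miRNA present at under 0.0005%, and an empty entry for one called absent, although an entry left out of the table by mistake would look the same. The table holds no read numbers, and read totals from elsewhere were not used here, so no counting error is given. There was 1 library per day and fluid, with no replicate, so no difference between libraries could be set against a spread. The libraries listed between 48 and 86 miRNAs, whose shares summed to between 95.8% and 99.6%. As a check of the labels, 4 of 7 listed epithelial miRNAs (miR-200b, miR-200c, miR-141 and miR-429) took between 0.033% and 4.96% of each milk library from day 75 on and at most 0.014% of serum. At day 35 miR-200b was listed at 0 and miR-200c was empty, no higher than in serum. MiR-375 was also higher in every milk than in either serum library, while miR-203, with 0.045% and 0.055% in serum, was lower in 4 of the 5 milk libraries, and miR-205a was at most 0.005% anywhere. The blood cell miRNAs miR-451, miR-144, miR-223, miR-142 and miR-150 together took 0.083% and 0.175% of the serum libraries. They took at most 0.049% of a milk library, and miR-486 was not listed. MiR-223 and miR-150 were lower in every milk than in either serum library. MiR-451, at 0.045% in day 175 milk, exceeded its 0.041% in day 120 serum. MiR-144 took 0.002% of day 175 milk and 0.001% of each serum library, and miR-142 at most 0.001% of any.

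The milk library of day 35 held 17.6% miR-184, that of day 75 held 24.8%, that of day 120 held 8.56%, that of day 175 held 1.45% and that of day 250 held 0.133%. The serum libraries of days 120 and 175 held 0.006% and 0.004%. All 5 milk libraries were thus above both serum libraries, and the milk libraries fall in the order day 75, day 35, day 120, day 175 and day 250. Every neighbouring pair in this order lies far outside the rounding, but with 1 library for each the spread between pools is unknown.

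The day 35 milk held 0.279% miR-204 and the day 75 milk 1.63%. The entry for day 120 milk was empty, the day 175 milk held 0.038%, and the day 250 milk listed miR-204 at 0. The serum of day 120 also listed it at 0, and the entry for day 175 serum was empty. Its order in milk was day 75, day 35 and day 175, followed by day 250 at under 0.0005%, and day 120 has no value to place.

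**Figure D1:**
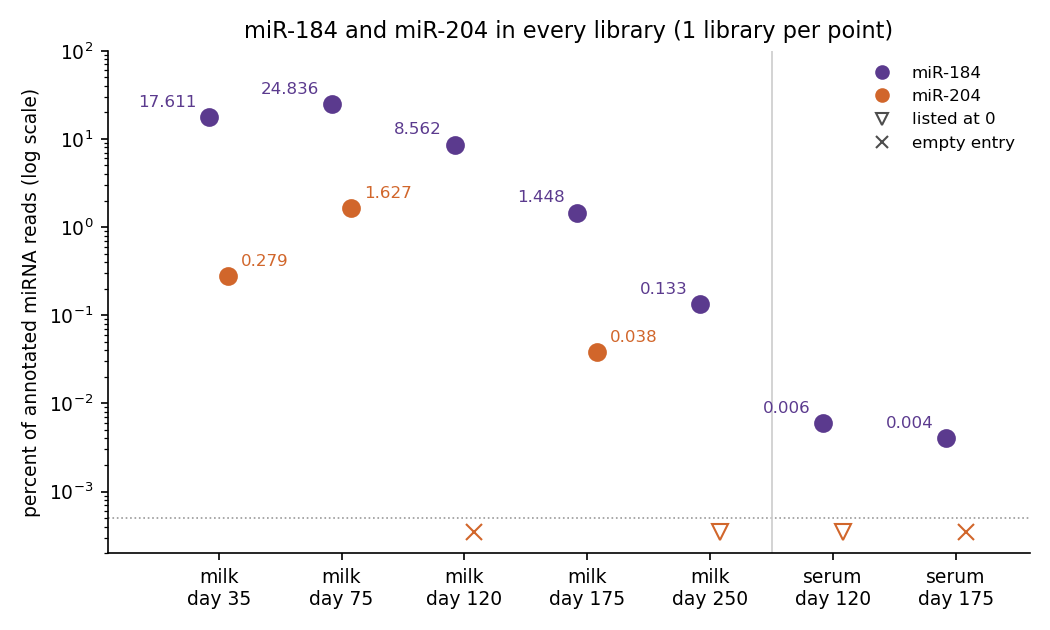
Percent of annotated miRNA reads of miR-184 and miR-204 (vertical log axis) in each of the 5 milk and 2 serum libraries (horizontal axis), with 1 point per library and no error bars because there were no replicates. Both were highest in milk at day 75, at 24.836% and 1.627%; entries listed at 0 and empty entries are drawn as open triangles and crosses under the dotted line at 0.0005%.

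By rank, miR-184 stood second in milk at days 35, 75 and 120, each time behind miR-191, and then took rank 14 of 81 on day 175 and rank 26 of 86 on day 250. The distance to its neighbours differed greatly between these days. At day 35 its share was followed by let-7f with 7.69%, and at day 75 by miR-148 with 10.6%. At day 120 miR-148 with 8.32% and miR-375 with 8.23% lay just under its 8.56%, so that its place there rests on small differences. In serum miR-184 ranked 51 of 74 listed miRNAs at day 120 and 52 of 75 at day 175.

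MiR-204 ranked 22 of the 48 miRNAs listed in milk at day 35, 10 of 85 at day 75, and 44 of 81 at day 175. At day 75 it stood between miR-141 with 1.74% and miR-10b with 1.52%. Together, with empty entries as 0, the pair made up 17.9%, 26.5%, 8.56%, 1.49% and 0.133% of the milk libraries in order of day. Nearly all of this was miR-184, and the part of miR-204 was largest at day 75.

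Between days 35 and 75, both within phase 2A, the share of miR-184 became 1.41-fold higher and that of miR-204 5.83-fold higher. Of 54 miRNAs with at least 0.005% in one of these libraries, 16 (29.6%) were at least 4-fold higher at day 75. They were counted on log2 of percent plus 0.001, and miR-204 was among them while miR-184 was not. Most of the 16 were at 0 or empty at day 35, when 48 miRNAs were listed, beside 85 at day 75. With 0.01 added instead, the count was 7. The rule that chose the pair used these values, so nothing is read from the count. The ratio of miR-184 to miR-204 within a library does not depend on what else was sequenced, and it was 63.1, 15.3 and 38.1 on days 35, 75 and 175 (the last 37.6 to 38.6 given the rounding). The pair thus did not keep a fixed proportion, and miR-204 came nearest to miR-184 at day 75.

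From day 75 to day 120, at the passage from phase 2A to phase 2B, the share of miR-184 became 2.90-fold lower and decreased by 16.3 percentage points. Of 55 miRNAs compared, 6 (10.9%) were at least 4-fold lower, and of the pair only miR-204, with its empty entry, was among them. That count was 1 with 0.01 added in place of 0.001, and 10 with a minimum of 0.001%. From day 120 to day 175 miR-184 became 5.91-fold lower, the largest decrease of the 59 miRNAs compared on log2 of percent plus 0.001 (without the 0.001, miR-223 decreased more, from 0.008% to 0.001%). Of the 59, 3 (5.08%) were at least 4-fold lower on that scale, namely miR-184, miR-191 and miR-223. This count was 5 without miR-191 in the total and 6 on the centred log ratio, explained below. The median log2 difference over those 59 was 1.22 upward. From day 175 to day 250 miR-184 became 10.9-fold lower and miR-204 went from 0.038% to an entry of 0. At that step 18 of 58 miRNAs (31.0%) were at least 4-fold lower, miR-184 and miR-204 included, and the median was -0.86. On the centred log ratio 8 were at least 4-fold lower at that step.

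By fold, each later step of miR-184 was larger than the one before, but the intervals between collections also lengthened. In percentage points each later step was smaller, at -16.3, -7.11 and -1.315 in order of day. Per day the log2 share changed by -0.034 from day 75 to day 120, by -0.047 from day 120 to day 175 and by -0.046 from day 175 to day 250. With each library centred on the mean log2 share of the 40 miRNAs above 0 in all 7 libraries (the centred log ratio), the 3 steps were -1.71, -3.45 and -2.37 on the log2 scale. On that scale the largest step fell between days 120 and 175 and not at the end of lactation.

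Over the whole decline, from day 75 to day 250, miR-184 became 187-fold lower, and miR-204 went from 1.63% to an entry of 0. Of 57 miRNAs compared, 10 (17.5%) were at least 4-fold lower at day 250, both of the pair included. Theirs were the 2 largest decreases, with a log2 difference of -7.53 for miR-184, and the next was miR-103 with -3.38. The median over the 57 was 0.22. The pair was chosen on these libraries, so its place at the end of this order is a description. With 0.0005 or 0.01 added in place of 0.001 both stayed the 2 lowest, although with 0.01 miR-184 was the lower of them. The other scalings move all miRNAs of a library nearly alike, so they could hardly change this order and nothing is read from them.

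**Figure D2:**
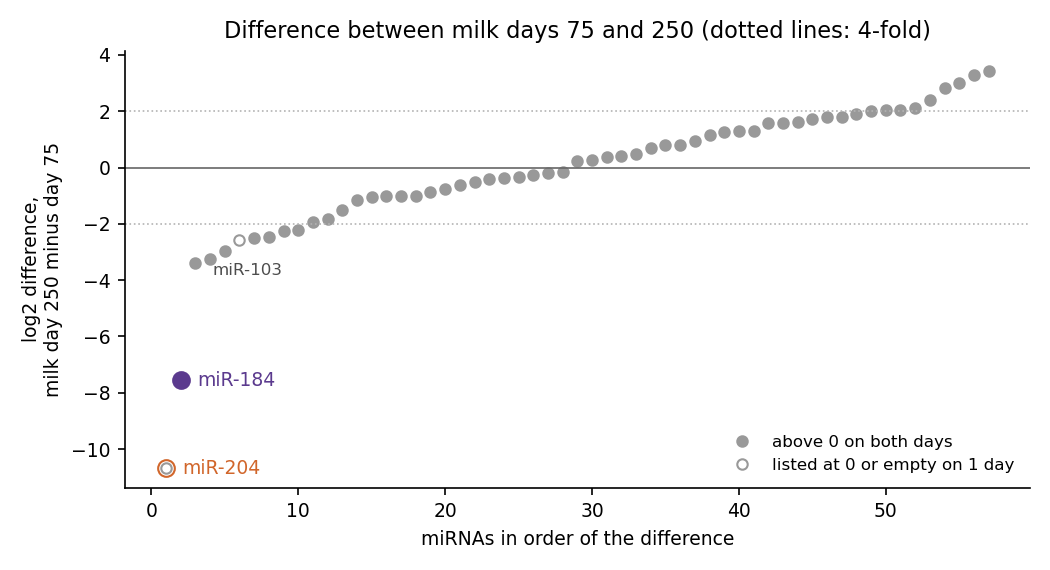
Log2 difference of percent plus 0.001 between the milk libraries of day 250 and day 75 (vertical axis) for 57 miRNAs with at least 0.005% in one of them, in order of the difference (horizontal axis); open circles are miRNAs listed at 0 or empty on one day, for which the difference depends on the 0.001 added. MiR-204 and miR-184, the latter at -7.53, lie apart from miR-103 at -3.38 and the rest.

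The peak at day 75 was not peculiar to the pair. Of 64 miRNAs that reached 0.005% in a milk library, 12 (18.8%) had their highest milk share at day 75, while 8 peaked on day 35, 5 on day 120, 26 on day 175 and 13 on day 250. The others with a peak at day 75 were the miR-181c/miR-181a entry, miR-26, miR-103, miR-16, miR-200b, miR-301, miR-23a, miR-340, miR-195 and miR-205a.

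The empty entry of miR-204 at day 120 stood between libraries in which it was well above the lowest values. The day 120 milk listed fewer miRNAs, 58, beside 85 at day 75 and 81 at day 175. Of 69 miRNAs above 0 at both days 75 and 175, 15 were empty at day 120. Apart from miR-204 these took at most 0.013% at day 75 (miR-27a) and at most 0.023% at day 175 (also miR-27a). A minimum of 0.02% at day 75, chosen after the values were seen, held for 41 miRNAs, of which 40 were above 0 at day 120 and miR-204 alone was empty. With 1 library of day 120 milk, these shares alone do not tell absence of miR-204 from an omitted entry. The paper lists miR-204 as specific to milk over days 120 and 175 together, and elsewhere calls it unique to early lactation. That listing gives no value for each day, so it does not settle the entry of day 120.

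Because the shares of a library add up to the whole, a miRNA as abundant as miR-184 lowers those of all others. With miR-184 left out of the total, every other share would be higher, by 1.21-fold, 1.33-fold, 1.09-fold and 1.01-fold on days 35, 75, 120 and 175. MiR-191, the most abundant miRNA of early milk, would then take 49.1%, 37.3% and 47.9% at days 35, 75 and 120, and miR-204 would take 2.16% at day 75. With miR-191 left out instead, miR-184 would take 29.6%, 34.5%, 15.2%, 1.60% and 0.157% in order of day. The order of the days was the same as with miR-191 included.

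Ratios to other abundant miRNAs of the same library are free of this effect. To miR-191, the ratio of miR-184 was 0.436, 0.886, 0.195, 0.150 and 0.00860 in order of day. It was thus nearly equal to miR-191 at day 75, and the ratio hardly differed between days 120 and 175, when the shares of both were lower at the later day. To miR-148, an abundant miRNA of milk in many mammals, it was 3.28, 2.35, 1.03, 0.0991 and 0.0143 in order of day. To miR-375, known from hormone-secreting cells, it was 7.32, 9.44, 1.04, 0.148 and 0.00516. MiR-184 therefore exceeded miR-148 and miR-375 in phase 2A, was level with them at day 120 and lay well below them later. To the miR-181c/miR-181a entry, whose own share varied little, between 5.02% and 7.53%, it was 2.61, 3.30, 1.71, 0.254 and 0.0228. The highest ratio fell at day 75 for 3 of these 4 references, and at day 35 for miR-148.

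For miR-204 the ratios to miR-191 were 0.00690, 0.0581 and 0.00394 on days 35, 75 and 175. To miR-375 they were 0.116, 0.618 and 0.00388 on the same days. Its ratios to miR-148 and to the miR-181 entry were also highest at day 75, at 0.154 and 0.216. Among days 35, 75 and 175 the ratio of miR-204 was thus highest at day 75 against all 4 references. Days 120 and 250 gave no ratio, and the pair was chosen for its peak at day 75, so this is a description.

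**Figure D3:**
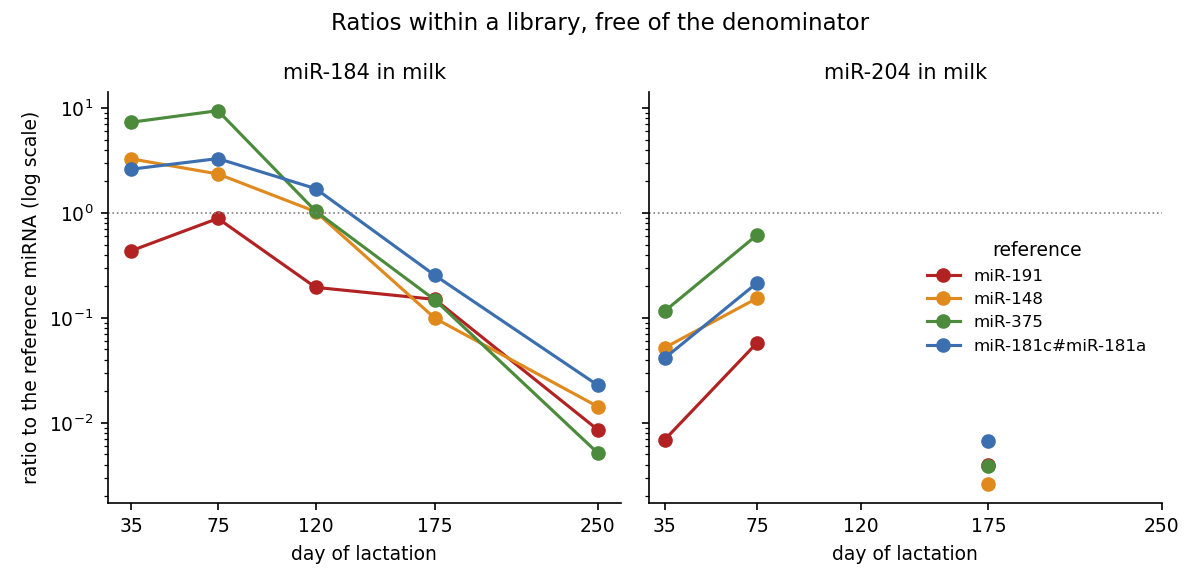
Share of miR-184 (left) and miR-204 (right) divided by that of 4 abundant miRNAs of the same milk library (vertical log axis) against the day of lactation (horizontal axis), with 1 library per point and the dotted line at a ratio of 1. MiR-184 crosses miR-148 and miR-375 at day 120, with ratios of 1.03 and 1.04, and miR-204 has no point at days 120 and 250, where it was empty or listed at 0.

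In serum miR-184 was 1427-fold below the milk of day 120 (1317 to 1557 given the rounding) and 362-fold below the milk of day 175 (322 to 414). The scaling moved these values more than the rounding, as the log2 difference of percent plus 0.001 went from 10.26 to 9.20 at day 120 and from 8.18 to 6.15 at day 175 on the centred log ratio. MiR-10b alone took 69.2% and 55.4% of the serum libraries, which lowers every other serum share and so raises these ratios. Without miR-10b and miR-191 in the total, the log2 differences were 9.35 at day 120 and 6.87 at day 175. At day 120 the milk to serum ratio of miR-184 was the largest among 53 miRNAs above 0 in both fluids. MiR-141 followed with 342. At day 175 miR-141 led the 56 such miRNAs with 496, and miR-184 was second. At least 4-fold higher in milk were 15 of 60 miRNAs (25.0%) at day 120, miR-184 included, and 29 of 61 (47.5%) at day 175, both of the pair included. The latter count was 18 without miR-10b and miR-191 in the total and 14 on the centred log ratio. MiR-204 has no ratio on either day, since at day 120 it was empty in milk and listed at 0 in serum, and at day 175 it took 0.038% in milk and was empty in serum.

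Of the values behind these ratios the milk share was 5.91-fold lower at the later day, while the serum shares, at 0.006% and 0.004%, lay close to the rounding step. Even the lowest milk library, day 250, was 22.2-fold above the higher serum library (20.4 to 24.3 given the rounding). No serum of days 35, 75 or 250 was analysed here, so the fluids cannot be compared at the peak of the pair. Milk and serum RNA were isolated with different kits, so an effect of the kit cannot be told apart from the fluid.

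**Figure D4:**
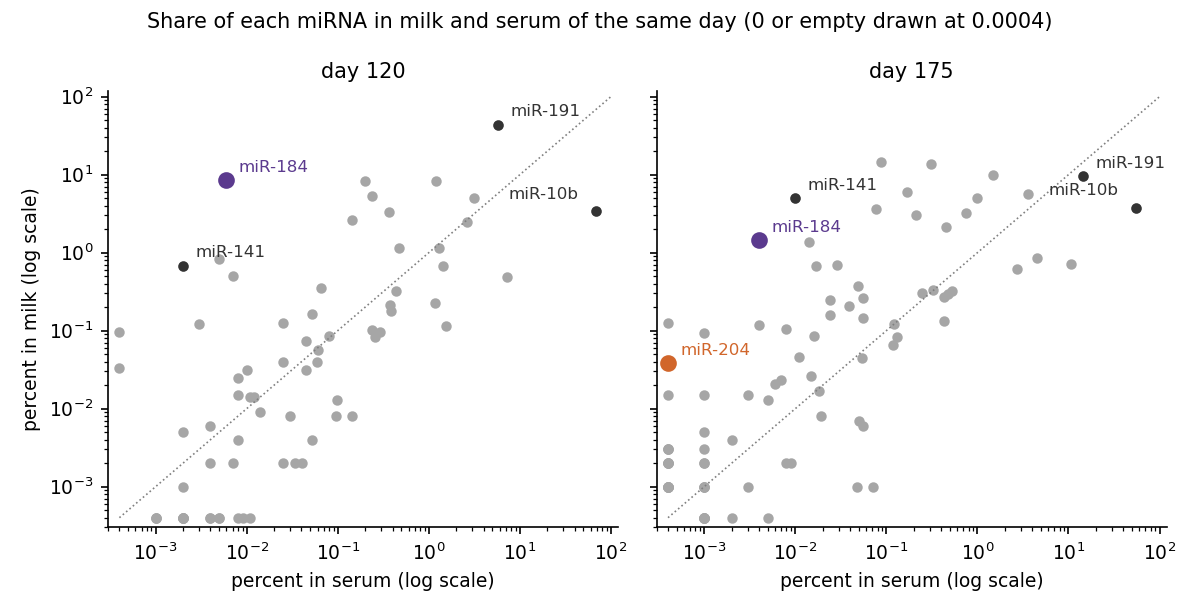
Percent of annotated miRNA reads in milk (vertical log axis) against serum (horizontal log axis) of the same day for every miRNA above 0 in either, with entries of 0 and empty entries drawn at 0.0004 and the dotted line marking equal shares. MiR-184 lies at 8.562% against 0.006% at day 120 and at 1.448% against 0.004% at day 175, near miR-141, and miR-204 appears at day 175 only.

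Of 18 miRNAs that reached 1% in a milk library, miR-204 had the lowest maximum in serum (listed at 0) and miR-184 the second lowest (0.006%). MiR-141, of the epithelial miR-200 family, followed with 0.010%, then miR-429 of the same family with 0.014% and miR-26 with 0.029%. A high milk and a very low serum share was thus found for other abundant miRNAs too. MiR-26 was highest at day 75 like the pair, while miR-141 and miR-429 had another course. MiR-141 took 0.344%, 1.74%, 0.684%, 4.96% and 4.17% of milk miRNA reads in order of day, and miR-429 took 0.398%, 0.231%, 0.5%, 1.375% and 0.205%, so both were highest at day 175.

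The miRNAs whose milk course was most like that of the pair were found by the Pearson correlation of log2 of percent plus 0.001 over the 5 milk libraries, among those that reached 0.005% in 2 or more of them. These correlations describe 5 points that share their libraries and denominators, and for miR-204 the points of days 120 and 250 are the 0.001 added alone. For miR-184 the nearest of 54 were miR-103 (r = 0.94), miR-301 (r = 0.94), let-7f (r = 0.89), miR-16 (r = 0.72) and miR-26 (r = 0.72). For miR-204 they were the miR-181c/miR-181a entry (r = 0.89), miR-301 (r = 0.88), miR-16 (r = 0.87), miR-19b (r = 0.76) and miR-103 (r = 0.69). The pair themselves correlated at 0.67, which placed miR-204 eighth for miR-184 and miR-184 seventh for miR-204. MiR-103, miR-301 and miR-16 stood on both lists, but under 13 alternatives miR-103 stayed among the 5 for miR-204 in only 4, and miR-26 among the 5 for miR-184 in only 5.

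Alike in shape, these miRNAs were far smaller in range. MiR-103 took 0.108%, 0.238%, 0.124%, 0.086% and 0.022% of milk miRNA reads in order of day, with 0.025% and 0.016% in serum. Its share was thus 10.8-fold lower at day 250 than at day 75, against 187-fold for miR-184. MiR-301 took 0.036%, 0.046%, 0.015%, 0.017% and 0.004%, and was 11.5-fold lower at day 250 than at day 75. MiR-26 took 0.466%, 1.45%, 0.836%, 0.692% and 0.306%, with 0.005% and 0.029% in serum, and so combined a peak at day 75 with a low serum share, as the pair did. Outside these lists miR-200b did so as well, with 0.138% at day 75 and entries of 0 in serum. Let-7f, of a family known for timing differentiation, was highest at day 35, with 7.69%, and was 3.85-fold lower at day 250 than at day 75. MiR-16 was only 1.71-fold lower and the miR-181 entry 1.29-fold lower. MiR-19b does not share the course after day 120, as it was highest at day 175 with 0.161%.

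**Figure D5:**
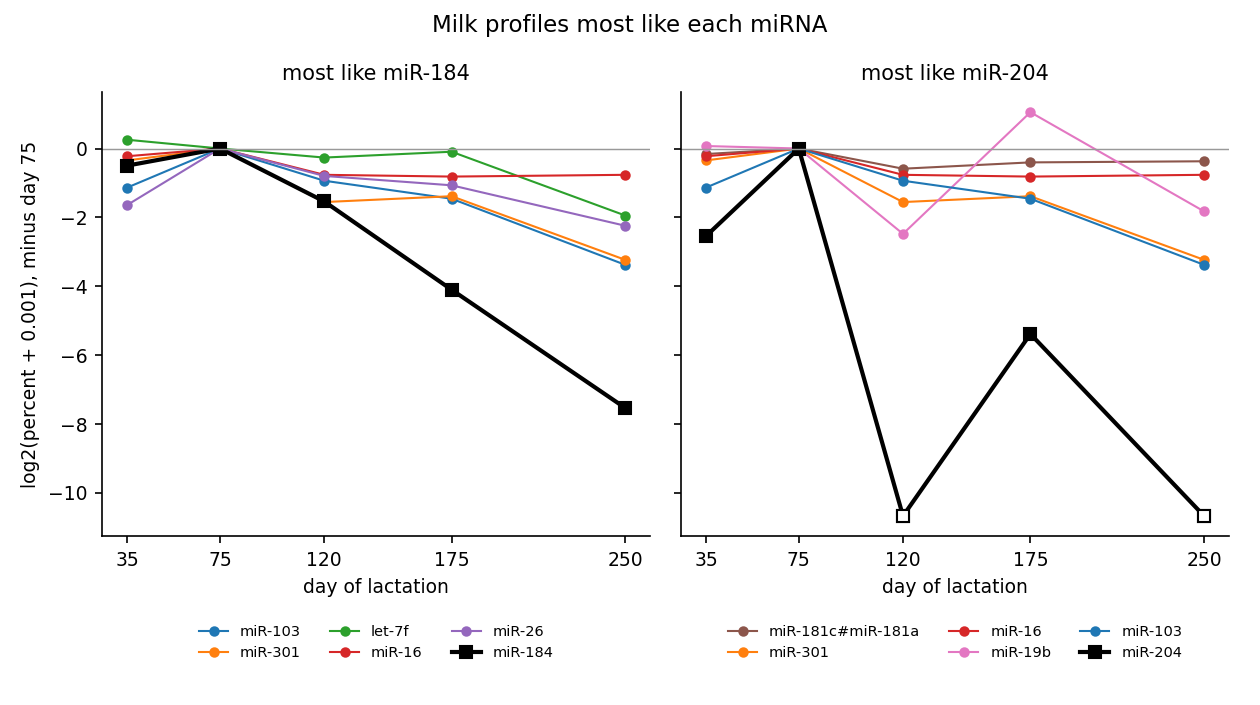
Log2 of percent plus 0.001 relative to day 75 (vertical axis) against the day of lactation (horizontal axis) for miR-184 and miR-204 (black squares, open where the entry was 0 or empty) and the 5 miRNAs whose milk course was most like each. The black lines reach -7.53 and lower, and the nearest of the others, miR-103 and miR-301, reach -3.38 and -3.23.

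Since both miRNAs are best known from the eye and nervous tissue, other miRNAs of these tissues were looked up. Of 12 miRNAs known from lens, retina or cornea, 11 were named in the table, 8 were listed and 6 reached 0.005% in a milk library. Among those 6, miR-26, miR-205a and the miR-181 entry were highest at day 75, as were 18.8% of all miRNAs of that level. Of the 5 that could be compared, 1 (miR-26) was at least 4-fold lower at day 250 than at day 75, beside 17.5% of all miRNAs compared, and their median log2 difference was -1.0, beside 0.22 over all 57 miRNAs. That median is the value of miR-205a, which went from 0.005%, the minimum, to 0.002%, so nothing is read from it. The 5 ranged from -2.24 (miR-26) to 1.28 (miR-125b). MiR-182 and miR-183, which belong to a cluster abundant in photoreceptors, did not follow the pair. MiR-182 took 0.192%, 0.016%, 0.057%, 0.247% and 0.005% of milk miRNA reads in order of day, with its lowest values at days 75 and 250, and miR-183 was highest at day 175 with 0.021%.

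Of 11 miRNAs known from the nervous system, all were named, 7 were listed and 1, miR-128, reached 0.005% in milk. MiR-128 was empty at day 35 and took between 0.026% and 0.036% on the later days. The neuronal miRNAs miR-124 and miR-9 were not among those listed. The whole nervous system list took at most 0.036% of a milk library, where miR-184 alone reached 24.8%.

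The epithelial list (the miR-200 family with miR-203, miR-205a and miR-375) took 3.18%, 4.79%, 9.57%, 16.4% and 30.3% of milk miRNA reads in order of day, and its highest sum, at day 250, was mostly miR-375 with 25.8%. MiR-141 and miR-429 were highest at day 175. Of its 7 listed members, all of which could be compared, 0 were at least 4-fold lower at day 250 than at day 75 and 1, miR-375, was at least 4-fold higher, beside 17.5% lower and 15.8% higher of all 57 miRNAs. Their median log2 difference of 0.22 was that of all miRNAs. The blood cell list took 0%, 0.002%, 0.010%, 0.049% and 0.011% in milk in order of day. It was thus lowest at days 35 and 75, where the pair was highest, and its part in the values of the pair was not tested.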

How the data were processed

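Small RNA was isolated from skim milk (5 pools) and serum (2 samples) and sequenced on an Illumina HiSeq. Milk and serum RNA were isolated with different kits. Each serum sample came from fewer mothers than the milk pool of its day. The authors trimmed adaptors, removed short and low quality reads, counted known miRNAs with miRanalyzer against miRBase, and divided the reads of each by all annotated miRNA reads of the library. The deposited values are such a percent, rounded to 3 decimals. The entries carry no arm or sequence, and reads of related miRNAs could be split between entries. Ranks, ratios, log2 differences and correlations were computed here with Python 3.11.15, numpy 2.4.6, pandas 2.3.3 and matplotlib 3.10.9. Empty entries were taken as 0 and 0.001 was added before log2. A miRNA entered a comparison of libraries with at least 0.005% in one of them, and 4-fold was the threshold. Ends of the rounding gave the ranges of ratios. No test was made, as there was 1 library per day and fluid. The miRNAs named are the pair, the 5 most like each, 4 abundant references, neighbours in rank, list members, and small sets. The members and lists were chosen with earlier results of these data known. The alternatives were other denominators, the centred log ratio, pseudocounts, minima, correlations, and each milk library left out in turn.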

Additional observations from a re-analysis of the deposited data

How the results depend on the processing

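A change of over 1.5-fold was counted as a move. For 8 of the log2 differences of the pair, the sign was the same under all 5 alternatives of scaling and pseudocount. Of these 40 values, 28 moved by less. The step of miR-184 from day 120 to day 175, -2.56 on the log2 scale, became -3.25 without miR-191 in the denominator, -3.28 without miR-10b and miR-191, and -3.45 on the centred log ratio. On the centred log ratio its step from day 175 to day 250 became -2.37, from -3.43, and that of miR-204 from day 75 to day 175 became -6.44, from -5.38. The log2 difference of miR-184 between milk and serum of day 120, 10.26, became 11.01 without miR-191, 9.35 without miR-10b and miR-191, 9.20 on the centred log ratio and 9.07 with 0.01 added. At day 175 it was 8.18, and became 6.87 without miR-10b and miR-191, 6.15 on the centred log ratio and 6.70 with 0.01 added. The difference of miR-204 at day 175, empty in serum, depends on the 0.001 added and is used only for the 4-fold count.

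With 0.01 added, the number at least 4-fold apart went from 16 to 7 between days 35 and 75 (higher), from 6 to 1 between days 75 and 120 (lower), from 18 to 11 between days 175 and 250 (lower) and from 10 to 5 between days 75 and 250 (lower). With a minimum of 0.001%, or none, the number lower at day 120 than at day 75 was 10. The number lower at day 175 than at day 120 went from 3 to 5 without miR-191, or without miR-10b and miR-191, and to 6 on the centred log ratio. On that scale the number lower at day 250 than at day 175 became 8. The 29 higher in milk than serum at day 175 became 18 without miR-10b and miR-191 and 14 on the centred log ratio.

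Of the 5 miRNAs most like miR-184, 3 stayed among the 5 over all 7 libraries and with percentages not logged, and 3 to 4 with one milk library left out. Of the 5 most like miR-204, 3 stayed with Spearman correlation, over all 7 libraries, with percentages not logged, without miR-191 and without miR-10b and miR-191, 2 on the centred log ratio, and 2 to 4 with one milk library left out. For miR-184 it was 3 without day 75, 175 or 250, and for miR-204 it was 2 without day 75. Under all 13 alternatives miR-103 stayed for miR-184, and under 12 miR-301 stayed for each of the pair. The other 7 places were kept under 4 (miR-103 for miR-204) to 11 (let-7f for miR-184). Milk and serum are compared within a day, and no test, paired by day or not, was made, since the pair was chosen on these contrasts. Rounding limits every value near 0.001%.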
